A study of Rattus norvegicus with 18 samples.

Results

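Nearly all genes described here encode nuclear subunits of the mitochondrial respiratory chain and of ATP synthase. They were measured in rat collecting duct cells of the renal inner medulla (IMCD cells) in primary culture at several osmolalities. Members were the genes whose array feature carried a single symbol beginning with Nduf, Sdh, Uqcr, Cox4 to Cox8 or Atp5, without assembly factors and pseudogenes, and each gene was read from its brightest feature on average. This gave 75 genes of the 14499 that had a symbol of their own on the array: 32 of complex I, 4 of complex II, 7 of complex III, 16 of complex IV and 16 of complex V, the ATP synthase. Ndufa4 was counted with complex IV, of which its product is a subunit despite its name. The count of complex V includes Atp5if1, an inhibitory factor. That of complex IV includes Cox7a2l, known as a factor that joins complexes III and IV. The subunits that mitochondrial DNA encodes were looked for under 26 symbols, and 0 of these were found among the named features, so the values below concern the nuclear genes alone.

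The respiratory chain passes electrons from NADH (complex I) and succinate (complex II) through ubiquinone to complex III, then by cytochrome c to complex IV, where oxygen is reduced. Complexes I, III and IV pump protons across the inner membrane, and complex V uses their return to make ATP. The inner medulla of the kidney is poorly supplied with oxygen and very concentrated, and its collecting duct cells are known for relying largely on glycolysis. Several subunits of complex IV exist as alternative isoforms of 1 subunit, of which one is general and others are typical of heart and muscle, lung or testis.

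There were 6 groups of 3 arrays, all of rat cells for which the labels name no allele or transgene. A pair of groups were cultures kept at 300 mosmol/kg (300 culture) or at 600 mosmol/kg (600 culture). The 600 challenge was a 300 culture moved to 600 mosmol/kg for 24 h, and the 900 challenge was a 600 culture moved to 900 mosmol/kg for 24 h. Each challenge was also made with 5 µM cyclosporin A (CsA), an inhibitor of the phosphatase calcineurin that also binds mitochondrial cyclophilin D. Strain, age and number of animals are not given in the sources used here, nor whether replicate arrays stem from different animals; p-values therefore reflect only the array-to-array spread, which may be technical. No group was moved to fresh medium at an unchanged osmolality, so osmolality and the change of medium cannot be told apart.

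Values are log-scale levels as the authors deposited them, with a base that is not stated. A difference of 1 log unit means 2-fold for base 2 and 2.72-fold for a natural logarithm. Array medians lay between 3.564 and 3.649 and lower quartiles between 2.476 and 2.70. The epithelial markers Epcam (means of the 6 groups from 7.97), Cdh1, Krt8 and Krt18 were high in every group. Aqp2, the vasopressin-regulated water channel that defines principal cells, was at 1.61 in the 300 culture, 2.28 in the 600 challenge, 6.50 in the 600 culture and 7.94 in the 900 challenge, and 6 of the 15 principal cell markers lay under the arrays' lower quartile in the 300 culture. This count was 5 in the 600 challenge, 6 in the 600 challenge with CsA, 2 in the 600 culture and 3 in each 900 challenge. The epithelial genes thus showed epithelial cells in all groups, without telling collecting duct from other epithelium. Aqp2 bore out the label of collecting duct cells only in the 600 culture and the 900 challenges. Leukocyte and fibroblast genes were also measured at clear levels, which are given beside the results that move with them.

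Of the 75 members, 67 had a promoter sequence in the RefSeq table (build GRCr8), and Cox4i2, Ndufb9, Cox6c, Cox6a1, Ndufa8, Atp5pd, Uqcr11 and Uqcrb did not. Regulators of nuclear respiratory genes are known to bind short motifs near the start site, so the 250 bases before each start were searched on both strands. The NRF1 core GCGCATGC was found in 9 of the 67 (13.4%) against 2.2% of all 33469 promoters in the table. The ETS motif bound by GABP, CCGGAAG, was found in 19 (28.4%) against 7.27%, and the ERR motif AAGGTCA in 7 (10.4%) against 3.99%. The CCAAT box (CCAAT) was in 22 (32.8%) against 34.0%. Members had 1 promoter per gene, whereas the shares beside them are over every promoter in the table, whatever its gene. The 2 sets are thus not matched, and the gaps were not tested. None of these motifs contains another, but some can overlap at their ends, and the NRF1 core and its reverse complement overlap where they lie in register. A match describes letters only and says nothing about binding.

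The last 200 bases before the start are shown for 4 members picked after their values were seen: Ndufa3 and Cox6b2, which had the largest rise and one of the largest falls, Atp5po, an ATP synthase subunit that fell at 900 mosmol/kg, and Sdhb, which was called in none of the comparisons. Capitals mark matches to the 4 motifs, on either strand.
Ndufa3 (chr1:74515559-74515758, minus strand, no match): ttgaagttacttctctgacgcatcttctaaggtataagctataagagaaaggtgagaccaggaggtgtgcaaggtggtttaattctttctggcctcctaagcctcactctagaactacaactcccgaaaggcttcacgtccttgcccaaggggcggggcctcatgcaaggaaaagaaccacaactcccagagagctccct
Cox6b2 (chr1:78122671-78122870, plus strand, CCAAT boxes on both strands): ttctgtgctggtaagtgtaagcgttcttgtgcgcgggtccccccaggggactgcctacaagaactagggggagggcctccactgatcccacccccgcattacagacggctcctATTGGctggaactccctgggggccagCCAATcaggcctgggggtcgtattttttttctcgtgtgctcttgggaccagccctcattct
Atp5po (chr11:44657484-44657683, minus strand, overlapping NRF1 cores): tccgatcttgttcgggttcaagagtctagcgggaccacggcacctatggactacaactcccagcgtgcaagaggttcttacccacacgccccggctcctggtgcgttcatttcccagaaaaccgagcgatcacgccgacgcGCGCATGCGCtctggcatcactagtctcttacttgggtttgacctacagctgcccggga
Sdhb (chr5:158547734-158547933, plus strand, NRF1 core and ETS motif): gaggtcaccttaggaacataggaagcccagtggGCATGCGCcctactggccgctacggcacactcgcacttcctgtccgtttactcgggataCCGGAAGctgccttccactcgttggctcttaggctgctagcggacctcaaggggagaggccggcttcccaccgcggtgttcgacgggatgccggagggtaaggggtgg

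Most members were bright and held steady. The mean level of 70 members lay above the median of every array, and 3 lay under the highest lower quartile: Cox6a2, Cox8b and Cox8c, isoforms typical of heart and muscle or testis. Among the general subunits, Atp5f1b (ATP synthase β, the catalytic subunit) had group means from 7.69 to 7.82, Uqcrb of complex III from 7.37 to 7.52, Ndufs1 (the largest core subunit of complex I) from 6.96 to 7.01, and Cox4i1 from 6.62 to 6.68. The spread between arrays of a group had a median SD of 0.0784 log units over the members and 0.155 over all 28328 features. Differences between groups were tested with limma, a linear model fitted to all features, and are called where the Benjamini-Hochberg adjusted p over all features was under 0.05. Across the 8 comparisons between groups, 21 members (28.0%) were called at least once and 54 never, where 37.2% of all features were called at least once. Of the 21, complex I held 10, complex II 1, complex III 1, complex IV 4 and complex V 5. The largest difference of a member never called was that of Ndufa6, which was -0.41 in the 600 challenge against the 600 culture (limma adjusted p = 0.0626). In each of the 8 comparisons between 49 and 60 members had a 95% interval that lay within 0.3 log units of no difference.

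**Figure D1:**
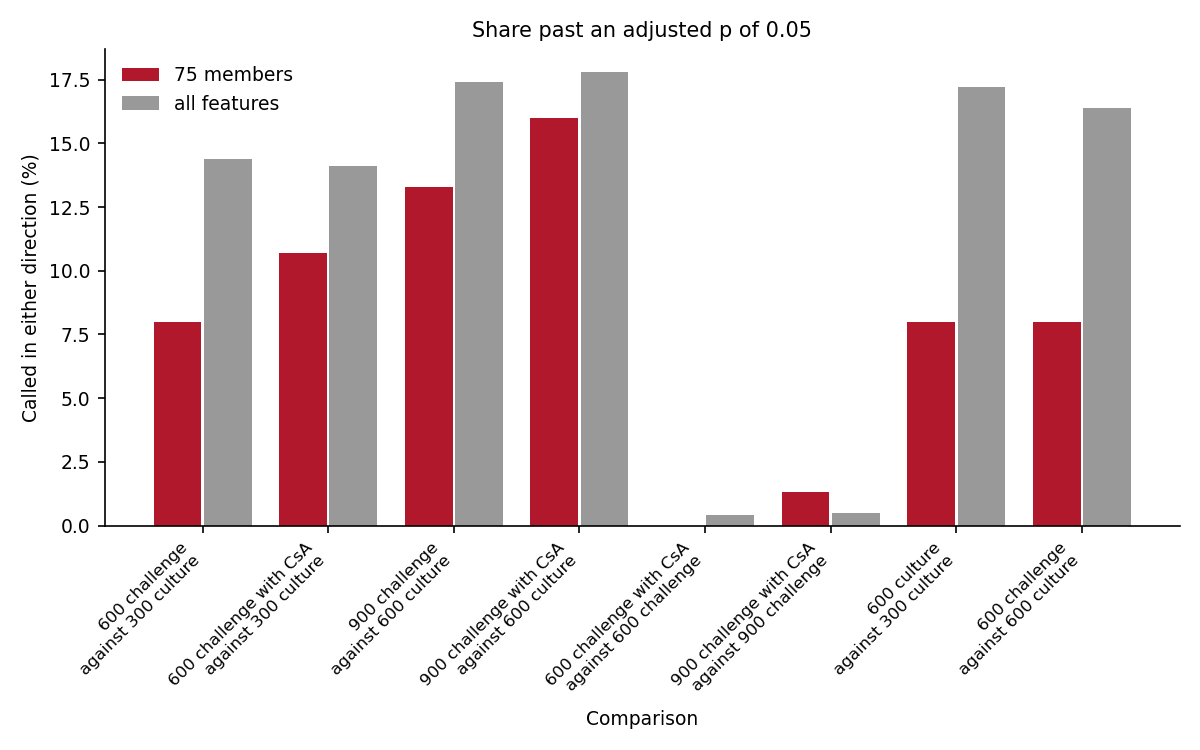
Bars give the percentage of the 75 members (red) and of all 28328 features (grey) with an adjusted p under 0.05 in either direction, for each of 8 comparisons between groups. The members' bar is below that of all features except in the 900 challenge with CsA against the 900 challenge, where 1 member was called.

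The first osmotic step was that from 300 to 600 mosmol/kg. In the 600 challenge against the 300 culture, 0 members rose and 6 fell, where 6.36% of all features rose and 8.07% fell. The 6 were Cox6b2 and Cox4i2 of complex IV, Ndufa5 and Ndufs4 of complex I, and Atp5if1 and Atp5f1d of complex V. The median difference of the members was -0.005 log units against 0.0173 over all features, and 36 of the 75 differences were above 0. With CsA, against the same 300 culture arrays, 0 members rose and 8 fell, where 6.21% of features rose and 7.85% fell, and the median difference was -0.0163 against 0.0265. Of these 8 falls, 3 were kept without replicate 1 of the drug group, and 5 without its replicate 3 or without replicate 1 of the 300 culture. Both comparisons use the same control arrays, so their values are given side by side and are not independent.

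In the second step, from 600 to 900 mosmol/kg, 6 members rose and 4 fell, where 6.43% of all features rose and 11.0% fell. All 6 that rose were complex I subunits (6 of its 32), namely Ndufa3, Ndufa2, Ndufb8, Ndufa1, Ndufs7 and Ndufb2. Those that fell were Cox6b2, Cox4i2 and Cox7a2l of complex IV and Atp5po of complex V. With CsA, against the same 600 culture arrays, 5 rose and 7 fell, where 7.27% of features rose and 10.5% fell. The 5 were Ndufa3, Ndufb8, Ndufs7, Ndufb2 and Ndufa1, and the 7 were Cox4i2, Cox6b2, Ndufa5, Atp5po, Atp5pf, Uqcr11 and Ndufs4. Of the 6 rises without the drug, 3 were kept without replicate 3 of the 600 culture and 2, Ndufa3 and Ndufb8, without replicate 1 of the 900 challenge. Of the 5 with CsA, 3 were kept without replicate 2 of the 600 culture or replicate 1 of the drug group. Each array of the drug group, and replicates 2 and 3 of the 600 culture, left 3 or 4 falls of the 7 when omitted. With arrays centred on their medians the split was 8 rises to 3 falls without and 8 to 3 with CsA, and with quantile normalization 10 to 4 and 7 to 7. Median differences over the members were 0.0183 without and 0.0103 with the drug, against -0.0127 and -0.0237 over all features. The steps from 300 to 600 and from 600 to 900 share no arrays, and without the drug Cox4i2 and Cox6b2 fell in both.

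**Figure D2:**
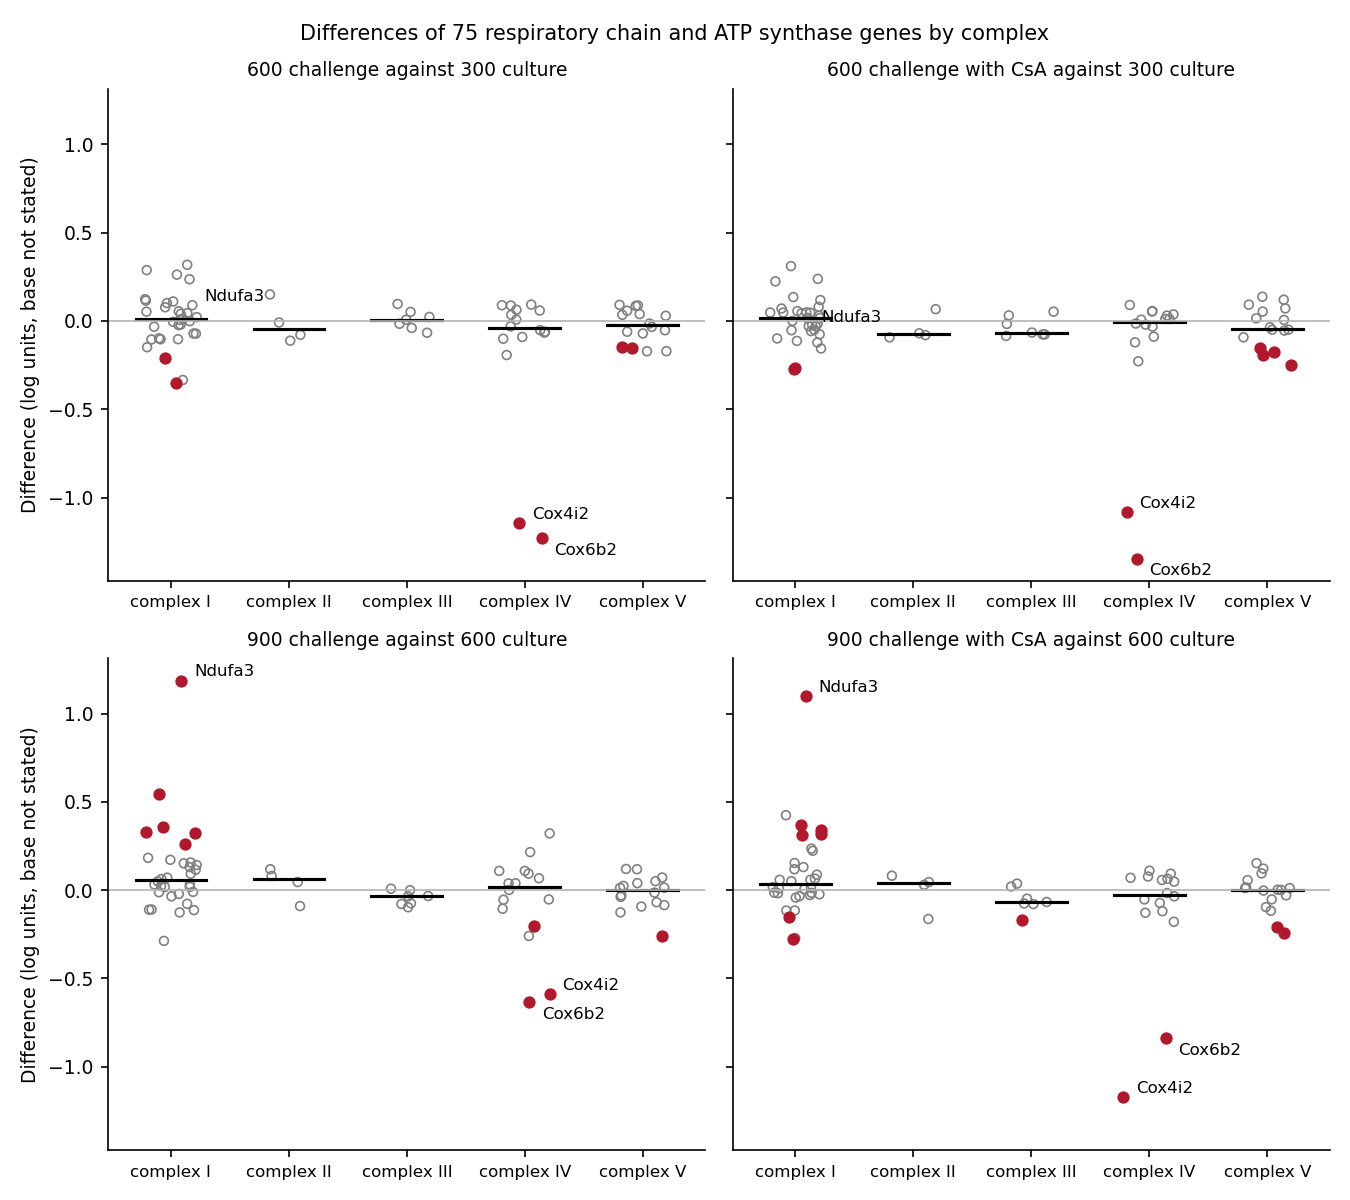
Each point is 1 of the 75 members, placed by complex (horizontal axis) and by its difference in log units (vertical axis), in the 4 comparisons of a challenge with its starting culture. Red points are called and open points are not, and black lines mark the median of each complex. Medians stay near 0, Cox4i2 and Cox6b2 lie lowest in every panel, and Ndufa3 lies highest in both 900 panels.

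Complex I takes electrons from NADH through a matrix arm with the flavin and iron-sulfur centres and hands them to ubiquinone at its membrane arm. The largest change of the complex was that of Ndufa3, an accessory subunit of the membrane arm. Its levels were 4.86, 4.70 and 5.16 in the 300 culture and 5.11, 4.79 and 5.08 in the 600 challenge. The 600 culture stood at 5.02, 5.45 and 5.11 and the 900 challenge at 6.41, 6.41 and 6.32. With CsA they were 4.72, 4.78 and 5.12 at 600 and 6.30, 6.31 and 6.27 at 900 mosmol/kg. The 6 arrays at 900 mosmol/kg all lay above the 12 others. The rise from the 600 culture was 1.19 ± 0.14 log units (SE, n = 3 per group; limma adjusted p = 2.47e-05), which is 2.28-fold with base 2 and 3.28-fold with a natural logarithm, and with CsA it was 1.10 ± 0.14 (adjusted p = 4.94e-05). In the step from 300 to 600 the difference was 0.09 ± 0.14 (adjusted p = 0.763), and the 600 culture differed from the 300 culture by 0.29 ± 0.14 (adjusted p = 0.198).

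Ndufb8 and Ndufb2, of the membrane arm, were also higher in both 900 groups than in the 600 culture, by less than Ndufa3. Ndufb8 stood at 4.71, 4.81 and 4.88 in the 600 culture, at 5.24, 5.11 and 5.13 in the 900 challenge and 5.18, 5.07 and 5.26 in the 900 challenge with CsA. All 6 arrays at 900 mosmol/kg were above the 600 culture. Its differences were 0.36 ± 0.077 (limma adjusted p = 0.00394) and, with CsA, 0.37 ± 0.077 (adjusted p = 0.00308). Ndufb2 rose by 0.26 ± 0.078 (adjusted p = 0.0301) and, with CsA, by 0.32 ± 0.078 (adjusted p = 0.0103). Ndufa1, a small membrane subunit needed to build the complex, stood at 4.72, 4.69 and 4.61 in the 600 culture and at 5.08, 4.95 and 4.98 in the 900 challenge, a rise of 0.33 ± 0.089 (adjusted p = 0.0171). The call of Ndufb2 without CsA was lost under 5 of 13 other settings (adjusted p up to 0.135) and that of Ndufa1 under 2 (up to 0.0707), each time including the fit without replicate 1 of the 900 challenge.

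Of the 6 measured core subunits (Ndufs1, Ndufs3, Ndufs7, Ndufs8, Ndufv1 and Ndufv2), 1 was called in either step. Ndufs7 holds the iron-sulfur centre next to ubiquinone. It stood at 5.47, 5.45 and 5.55 in the 600 culture and at 5.91, 5.80 and 5.72 in the 900 challenge, without overlap. The rise was 0.32 ± 0.095 (limma adjusted p = 0.0294) and, with CsA, 0.34 ± 0.095 (adjusted p = 0.0223). Omitting replicate 1 or 2 of either group ended the first call (adjusted p up to 0.114), and 4 of 13 other settings ended the second (up to 0.101). The other core subunits had differences between -0.0093 (Ndufs8) and 0.16 in the 900 challenge and were not called.

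Ndufa5, Ndufs4 and Ndufa2 belong to the matrix arm, and their values were highest and lowest in different groups. Ndufa5 was at 5.39, 5.24 and 5.32 in the 300 culture and at 4.79, 5.07 and 5.02 in the 600 challenge, a fall with no overlap (-0.35 ± 0.079; limma adjusted p = 0.00669). With CsA the 600 challenge stood at 4.94, 5.17 and 5.04 (-0.27 ± 0.079; adjusted p = 0.0355; not called under 6 of 13 other settings, up to 0.147). The 600 culture, at 5.34, 5.48 and 5.42, did not share the low level of the 600 challenge (-0.45 ± 0.079 for the challenge against it; adjusted p = 0.000906).

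Ndufs4, whose loss is known to cause Leigh syndrome, an early-onset brain disease, had the same pattern at a smaller size. It stood at 6.35, 6.32 and 6.29 in the 300 culture, at 6.08, 6.13 and 6.11 in the 600 challenge and 6.28, 6.35 and 6.33 in the 600 culture. Against the 300 culture the challenge was lower by -0.21 ± 0.047 (limma adjusted p = 0.00622), and with CsA by -0.27 ± 0.047 (adjusted p = 0.000973). At 900 mosmol/kg its difference was -0.08 ± 0.047 (adjusted p = 0.332) without and -0.15 ± 0.047 (adjusted p = 0.0393) with the drug, and the latter call was lost under 7 of 13 other settings (up to 0.186). Ndufa2 stood at 3.81, 3.99 and 3.75 in the 600 culture, at 4.23, 4.18 and 4.47 in the 600 challenge and at 4.60, 4.42 and 4.15 in the 900 challenge. Both challenges lay above the 600 culture on every array, by 0.45 ± 0.14 (adjusted p = 0.0457) and by 0.54 ± 0.14 (adjusted p = 0.0155), and these calls were lost under 7 and 3 of 13 other settings (up to 0.176 and 0.0769).

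Complex II oxidises succinate in the citric acid cycle and is the only complex with all its subunits encoded in the nucleus. Its 4 genes were called in neither step. Sdha, the flavoprotein that binds succinate, was at 6.23, 6.30 and 6.23 in the 300 culture and at 6.62, 6.56 and 6.50 in the 600 culture. These groups did not overlap, and the rise was 0.305 ± 0.057 (limma adjusted p = 0.00137). It stood at 6.53, 6.35 and 6.33 in the 600 challenge, with replicate 1 inside the range of the 600 culture, and differed by 0.15 ± 0.057 from the 300 culture (adjusted p = 0.104). Sdhb, Sdhc and Sdhd had group means between 5.99 and 6.56.

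Complex III passes electrons from ubiquinol to cytochrome c. Of its 7 genes, 0 were called in the 4 comparisons of challenges without drug or between cultures, and all 7 intervals lay within 0.3 log units of no difference in both steps. Uqcr11, its smallest subunit, was lower by -0.17 ± 0.047 in the 900 challenge with CsA than in the 600 culture (limma adjusted p = 0.0219). It stood there at 6.65, 6.63 and 6.72, against 6.77, 6.86 and 6.88 in the 600 culture, and 6 of 13 other settings ended the call (adjusted p up to 0.161).

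Complex IV, cytochrome c oxidase, held the largest falls. Cox4i2 is the alternative isoform of subunit 4, known from lung and for its induction by low oxygen, and Cox4i1 is the general one. Cox4i2 was at 4.05, 4.07 and 3.93 in the 300 culture, at 2.87, 3.18 and 2.85 in the 600 culture, and at 2.78, 2.93 and 2.91 in the 600 challenge. The 900 challenge stood at 2.35, 2.40 and 2.38. With CsA the levels were 2.94, 2.94 and 2.92 at 600 and 1.68, 1.68 and 2.03 at 900 mosmol/kg. The order of means thus ran from the 300 culture down to the 900 challenge with CsA, and the 3 groups at 600 mosmol/kg overlapped. In the step from 300 to 600 Cox4i2 fell by 1.14 ± 0.098 log units (limma adjusted p = 1.51e-06), 2.21-fold with base 2 and 3.14-fold with a natural logarithm, and with CsA by 1.08 ± 0.098 (adjusted p = 2.71e-06). In the step from 600 to 900 it fell by 0.59 ± 0.098 (adjusted p = 0.000589) and with CsA by 1.17 ± 0.098 (adjusted p = 9.51e-07). Both 900 groups lay under the arrays' lower quartiles, and the sources used here give no signal over background.

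Cox4i1 stood between 6.50 and 6.76 on all 18 arrays. Its differences were 0.06 ± 0.071 in the first step (limma adjusted p = 0.652; 95% interval -0.088 to 0.215) and -0.05 ± 0.071 in the second (adjusted p = 0.704; interval -0.205 to 0.0973).

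Cox6b2 is the testis isoform of subunit 6B, and the other isoform, Cox6b1, was not among the members. The mean level of Cox6b2 over all arrays, 3.52, lay under the median of every array. Its levels were 4.58, 4.49 and 4.61 in the 300 culture, 3.79, 3.88 and 3.82 in the 600 culture and 3.44, 3.22 and 3.33 in the 600 challenge. In the 900 challenge they were 3.15, 3.32 and 3.12, with CsA 2.87, 3.03 and 3.08, and in the 600 challenge with CsA 2.99, 3.40 and 3.25. The 300 culture lay above all other arrays and the 600 culture above all the challenged ones. The fall was 1.23 ± 0.097 log units in the first step (limma adjusted p = 6.83e-07), 2.34-fold with base 2 and 3.42-fold with a natural logarithm, and 0.64 ± 0.097 in the second (adjusted p = 0.000289). With CsA the falls were 1.35 ± 0.097 (adjusted p = 2.7e-07) and 0.84 ± 0.097 (adjusted p = 2.32e-05). The 600 challenge was also lower than the 600 culture by -0.50 ± 0.097 (adjusted p = 0.002).

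**Figure D3:**
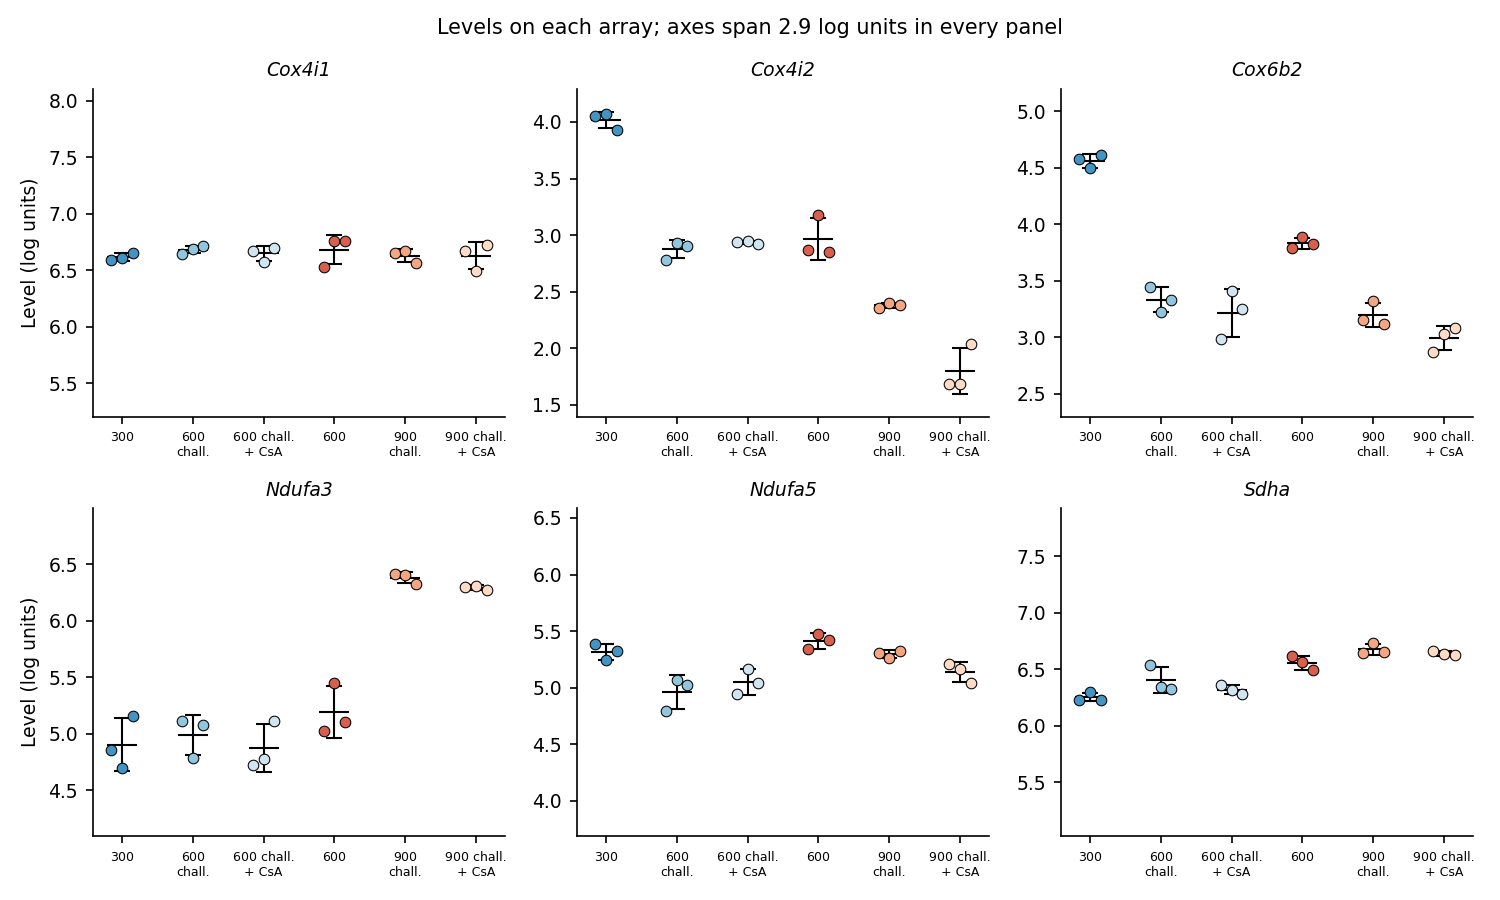
Each panel shows the level of 1 gene in log units on every array (points), with the group mean and SD (bars, n = 3), for the 6 groups; every vertical axis spans the same range of log units. Cox4i1 is level, Cox4i2 and Cox6b2 fall from the 300 culture on, Ndufa3 is high in the 900 groups alone, Ndufa5 is lowest in the 600 challenges and Sdha is lowest in the 300 culture.

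Leukocyte and fibroblast markers moved with Cox4i2 and Cox6b2. The mean over 12 leukocyte markers was 5.94 in the 300 culture, 4.79 in the 600 culture, 4.66 in the 600 challenge and 3.57 in the 900 challenge, and 10 of the 12 fell in the first step and 11 in the second. The mean over 13 fibroblast and interstitium markers was 6.13, 5.77, 5.42 and 5.13 in the same order, with 10 and 11 falls and 0 rises. Of 8 endothelium markers, 5 fell and 1 rose in the first step, and 4 fell and 2 rose in the second. Their mean did not follow the same course, at 5.24, 5.30, 4.85 and 5.08 in the same order of groups. In the 600 culture against the 300 culture, 3 of them rose and 3 fell. Of all features, 6.36% rose and 8.07% fell in the first step, and 6.43% and 11.0% in the second. Muscle and testis markers had means between 2.46 and 2.78, near the arrays' lower quartiles, with 1 of 10 and 0 of 7 called in the steps, and 8 of the 9 proximal tubule markers lay under the lower quartile in the 300 culture. The macrophage genes C1qa (6.08 in the 300 culture, 1.91 in the 900 challenge) and Tyrobp (4.65 and 2.06) and the myofibroblast genes Tagln (8.10 and 6.40) and Postn (6.58 and 3.33) were among those that fell. The part of these cell types in the falls of Cox4i2 and Cox6b2 was not tested, and in whole cultures fewer cells of a type and less RNA per cell cannot be told apart.

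Among the other members of complex IV, only Cox7a2l and Ndufa4 were called in any comparison. Uncalled differences reached 0.32 log units, for Cox6a2 in the 900 challenge against the 600 culture. Cox7c, also not called, stood at 6.43, 6.34 and 6.41 in the 600 culture and at 6.08, 5.99 and 6.33 in the 900 challenge. Cox8a stood at 7.35, 7.35 and 7.24 and at 7.58, 7.58 and 7.44 in the same groups. Cox6a1 and Cox8a, the general isoforms, had group means from 7.22 to 7.36 and from 7.03 to 7.53 and were not called in any comparison. Their muscle isoforms Cox6a2 and Cox8b had means from 1.89 to 2.28 and from 2.13 to 2.28, and Cox8c from 1.46 to 1.66. Cox7a2l, known as a factor that joins complexes III and IV in supercomplexes, stood at 6.61, 6.74 and 6.64 in the 600 culture and at 6.51, 6.49 and 6.39 in the 900 challenge, a fall of 0.20 ± 0.052 (limma adjusted p = 0.0144; not called under 4 of 13 other settings, up to 0.128). Ndufa4 was at 7.50, 7.47 and 7.50 in the 300 culture and at 7.70, 7.78 and 7.69 in the 600 culture, a rise of 0.23 ± 0.044 (adjusted p = 0.00158). In the 600 challenge, at 7.62, 7.54 and 7.58, Ndufa4 was lower than in the 600 culture (-0.14 ± 0.044; adjusted p = 0.0372; not called under 7 of 13 other settings, up to 0.205).

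Complex V couples a proton-driven rotor in the membrane to the catalytic F1 head, held still by a peripheral stalk. The catalytic subunits Atp5f1a and Atp5f1b and the rotor ring genes Atp5mc1, Atp5mc2 and Atp5mc3 were not called in any comparison when read from their brightest features. No member with several features was called by its brightest one, so the other features check none of the calls. Of 88 pairs of a member's brightest and another feature over the 8 comparisons, 87 had neither feature called. The exception was the second feature of Atp5mc3, called lower in the 900 challenge than in the 600 culture (-0.24, against -0.09 for the brightest). The calls fell on small parts of the stalks and on the inhibitor. Atp5f1d, the δ subunit of the central stalk, stood at 7.57, 7.55 and 7.55 in the 300 culture, at 7.44, 7.42 and 7.38 in the 600 challenge and 7.28, 7.29 and 7.35 in the 600 culture. Every array of the 300 culture was above all others. The 600 challenge was lower by -0.15 ± 0.042 (limma adjusted p = 0.03) and the 600 culture by -0.25 ± 0.042 (adjusted p = 0.000521). Atp5if1, the inhibitory factor that stops ATP hydrolysis when the proton gradient fails, was at 6.989, 7.065 and 6.997 in the 300 culture and 6.837, 6.833 and 6.926 in the 600 challenge (-0.15 ± 0.043; adjusted p = 0.0291). In the 600 challenge the calls of Atp5f1d and Atp5if1 were lost under 9 and 6 of 13 other settings (adjusted p up to 0.129 and 0.166).

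Atp5po, the OSCP subunit at the top of the peripheral stalk, to which cyclophilin D binds, stood at 6.02, 6.09 and 5.97 in the 600 culture and at 5.74, 5.79 and 5.77 in the 900 challenge. The groups did not overlap, and the fall was 0.26 ± 0.047 (limma adjusted p = 0.00121). With CsA the levels were 5.84, 5.72 and 5.80 and the fall 0.24 ± 0.047 (adjusted p = 0.0022). Atp5pf, coupling factor 6 of the same stalk, was lower with CsA in both steps (-0.19 ± 0.057, adjusted p = 0.0373, and -0.21 ± 0.057, adjusted p = 0.0197), and each call was lost under 6 of 13 other settings (up to 0.152 and 0.13). Without CsA its differences were -0.17 (adjusted p = 0.0626) and -0.13 (adjusted p = 0.17). Atp5f1e, the ε subunit, differed from the 300 culture by -0.25 ± 0.058 in the 600 challenge with CsA (adjusted p = 0.00965) and by -0.17 ± 0.058 without it (adjusted p = 0.0651).

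Culture at 600 instead of 300 mosmol/kg was compared directly as well. In the 600 culture against the 300 culture, 3 members rose (Ndufb11, Sdha and Ndufa4) and 3 fell (Cox4i2, Cox6b2 and Atp5f1d), where 8.33% of all features rose and 8.84% fell. The median difference was 0.0147 against 0.0023 over all features. Ndufb11, a membrane-arm subunit encoded on the X chromosome in mammals, stood at 4.70, 4.76 and 4.69 in the 300 culture and at 5.05, 5.21 and 5.01 in the 600 culture, a rise of 0.38 ± 0.092 (limma adjusted p = 0.00984; 0.051 without replicate 2 of the 600 culture). With quantile normalization 5 members rose and 3 fell. Cox4i2 was lower by -1.05 ± 0.098 (adjusted p = 1.69e-06) and Cox6b2 by -0.73 ± 0.097 (adjusted p = 6.33e-05).

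A challenge of 24 h and a longer culture at the same 600 mosmol/kg gave different values for 6 members. In the 600 challenge against the 600 culture 2 rose, Ndufa2 and Ndufab1, and 4 fell, Cox6b2, Ndufa5, Ndufs4 and Ndufa4, where 7.69% of features rose and 8.74% fell. Ndufab1, the mitochondrial acyl carrier protein, was higher by 0.21 ± 0.057 (limma adjusted p = 0.0177; not called under 4 of 13 other settings, up to 0.0795). Of the 2 rises, 0 were kept without replicate 3 of the 600 culture or replicate 1 of the 600 challenge, and 1 without any other single array of these groups. With quantile normalization the split was 2 rises to 9 falls. The principal cell markers also differed here, with 10 of 15 lower in the 600 challenge. How these markers bear on the members was not tested.

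The steps themselves were compared by a contrast, the change from 600 to 900 minus that from 300 to 600. Here 4 members had a positive difference and 0 a negative one, where 3.52% of all features were positive and 4.06% negative. Ndufa3 had a larger difference in the second step by 1.10 ± 0.19 (limma adjusted p = 0.00299) and Ndufa1 by 0.43 ± 0.13 (adjusted p = 0.0499). For Cox6b2 and Cox4i2 the second fall without the drug was the smaller one, by 0.59 ± 0.14 (adjusted p = 0.0163) and 0.56 ± 0.14 (adjusted p = 0.0243). With CsA, Cox4i2 fell by 1.08 in the first step and 1.17 in the second, and its levels at 900 mosmol/kg lay under the arrays' lower quartiles, where the signal over background is not known. The calls of Cox4i2 and Ndufa1 were lost under 8 and 14 of 19 other settings, with adjusted p up to 0.0633 and 0.116. Both were lost without replicate 1 or 2 of the 300 culture, replicate 1 or 3 of the 600 culture or replicate 2 of the 900 challenge, so that 2 of the 4 members were kept.

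**Figure D4:**
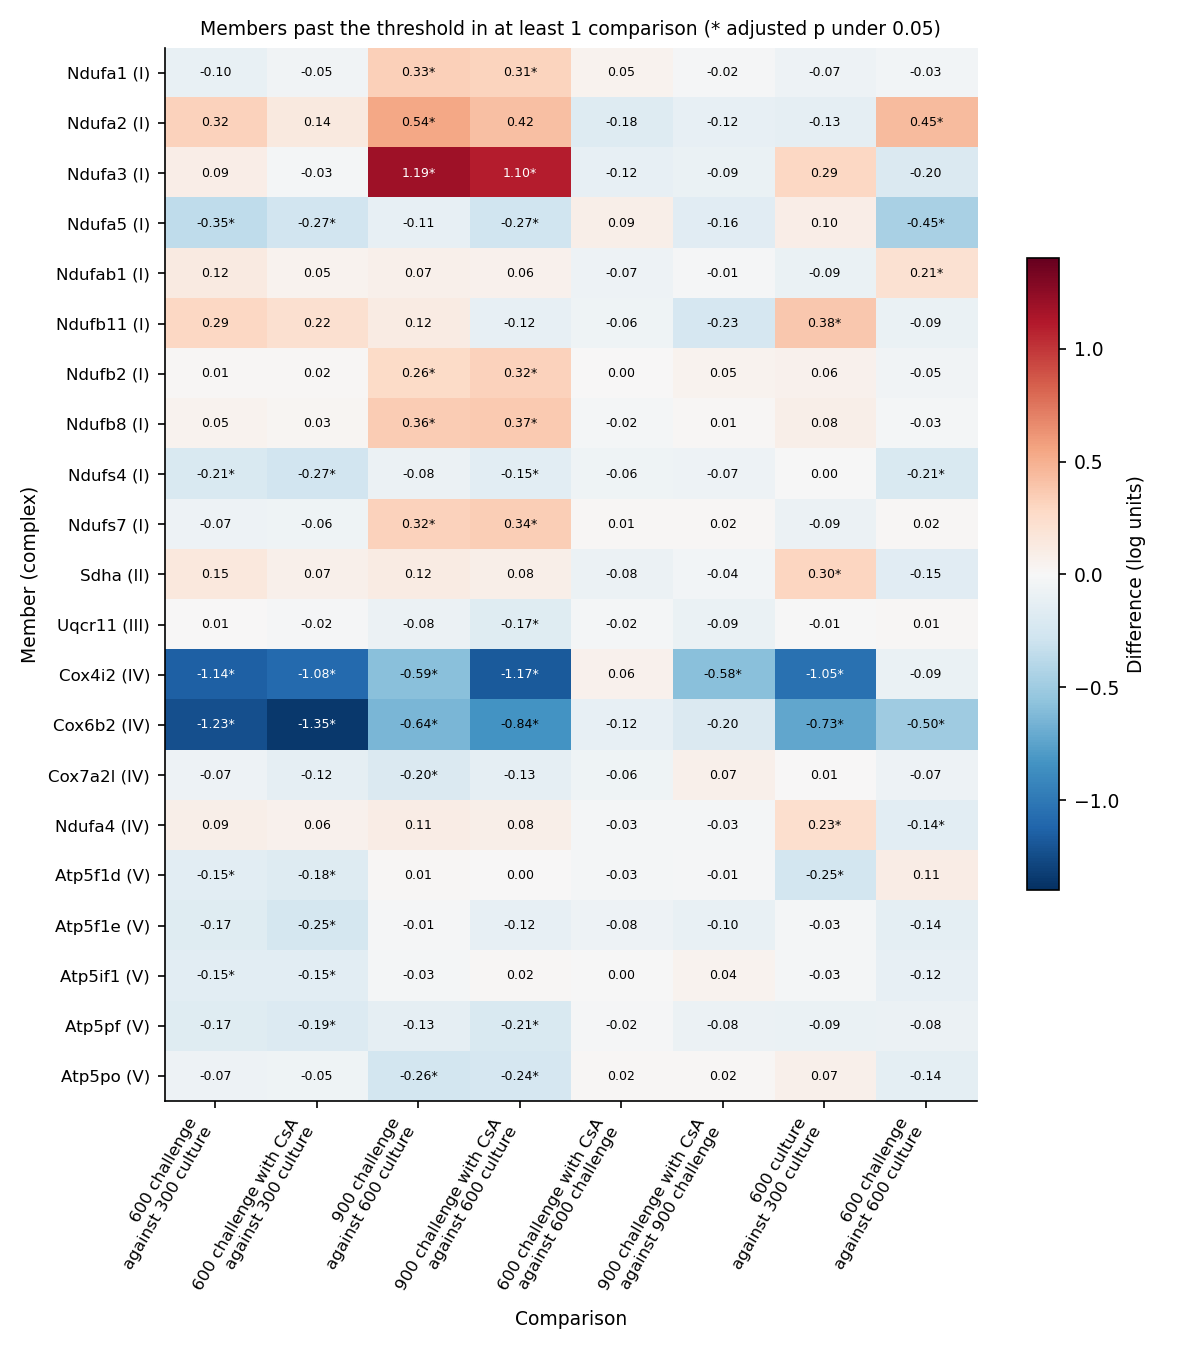
Rows are the 21 members called in at least 1 of 8 comparisons, with their complex, and columns are the comparisons. Colour and number give the difference in log units, and an asterisk marks an adjusted p under 0.05. The rises at 900 mosmol/kg are all in complex I rows, the deepest falls are in the rows of Cox4i2 and Cox6b2, and the columns that compare a challenge with CsA to the same challenge without it hold 1 asterisk together.

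Between challenges with and without cyclosporin A, few of the members and few of all features were called. In the 600 challenge with CsA against the 600 challenge, limma called 0 members, where 0.229% of features rose and 0.180% fell. At an unadjusted p under 0.05 there was 1 member (1.33%), against 8.49% of all features. The 95% interval lay within 0.3 log units of no difference for 60 of the 75 members and within 0.5 for 70. At 900 mosmol/kg 0 members rose with CsA and 1 fell, where 0.357% of features rose and 0.148% fell. This was Cox4i2, with a fall of 0.58 ± 0.098 (limma adjusted p = 0.0179; all 3 arrays with the drug under the 3 without), which was not called under 7 of 13 other settings (adjusted p up to 0.305), among them the fits without any 1 array of the 900 challenge or without replicate 1 or 2 of the drug group. The leukocyte marker mean was 3.57 without and 3.58 with CsA at 900 mosmol/kg. Of the 13 fibroblast markers, 2 were lower and 1 higher with the drug, with a median difference of -0.0013 against -0.0027 over all features. Between the 900 challenges, 5 members (6.67%) had an unadjusted limma p under 0.05, against 10.6% of all features. Their 95% intervals lay within 0.3 log units of no difference for 59 of the 75 members and within 0.5 for 70. The effect of CsA at 900 minus that at 600 was called for 0 members by limma, with 0.0388% of features positive and 0.00706% negative. For this difference 4 members (5.33%) had an unadjusted p under 0.05, against 7.59% of all features. For Cox4i2 the difference of the effects was -0.64 ± 0.14 (adjusted p = 0.181).

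Genes that build, supply or regulate the chain were read from the same fit. Of 34 measured assembly factors, which insert cofactors and join subunits but are not part of the finished complexes, 3 rose in the 600 challenge and 9 in the 900 challenge, and 0 fell in either, where 6.36% and 6.43% of all features rose and 8.07% and 11.0% fell. With CsA 4 and 11 rose and 0 fell, where 6.21% and 7.27% of all features rose. Their median differences were 0.131 and 0.145 log units without the drug, against 0.0173 and -0.0127 over all features. In the 900 challenge the largest rises were those of Tmem186 (complex I assembly; 0.65), Sco1 (copper delivery to complex IV; 0.62), Uqcc3 (complex III assembly; 0.38), Cox11 (copper delivery; 0.34) and Cox20 (0.31). The mean over these factors ran from 4.73 to 4.75 on the arrays of the 300 culture, 4.80 to 4.84 in the 600 culture and 4.92 to 4.98 in the 900 challenge. The 600 challenge, at 4.82 to 4.88, and the 600 challenge with CsA, at 4.82 to 4.86, overlapped the 600 culture, and the 900 challenge with CsA, at 4.94 to 4.99, overlapped the 900 challenge.

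Of 24 measured regulators of mitochondrial biogenesis, 5 rose and 1 fell in the first step and 3 rose and 3 fell in the second. Their median differences were 0.0575 and -0.0047 log units, against 0.0173 and -0.0127 over all features. Of all features, 6.36% and 6.43% rose and 8.07% and 11.0% fell in these steps. Ppargc1a, the coactivator PGC-1α that drives respiratory gene transcription, stood at a mean of 1.87 in the 300 culture, 1.96 in the 600 challenge, 2.91 in the 600 culture and 3.92 in the 900 challenge. The means in the 300 culture and the 600 challenge lay under the arrays' lower quartiles, where the signal over background is not known. Ppargc1a rose in the second step by 1.01 ± 0.13 (limma adjusted p = 7.2e-05). In the 600 culture against the 300 culture Ppargc1a rose by 1.04 ± 0.13 (adjusted p = 3.83e-05). Its paralogue Ppargc1b fell in the first step by 0.79 ± 0.17 (adjusted p = 0.0058). Esrrb, an orphan receptor of the ERR family, rose in the first step by 0.97 and in the second by 0.68, and Polg2 and Polrmt, the accessory subunit of the mitochondrial DNA polymerase and the mitochondrial RNA polymerase, rose in the first by 1.08 and 0.79.

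Among 16 measured genes of pyruvate entry and the citric acid cycle, 3 rose and 0 fell in the first step. In the second, 2 rose and 2 fell (medians of the steps 0.0064 and -0.0272). Over all features, 6.36% and 6.43% rose and 8.07% and 11.0% fell in these steps (medians 0.0173 and -0.0127). Pc, pyruvate carboxylase, rose by 1.10 ± 0.087 (limma adjusted p = 6.99e-07) and 0.81 ± 0.087 (adjusted p = 1.19e-05), and Pdha1, the E1α subunit of pyruvate dehydrogenase, by 0.33 and 0.36. Idh2 and Idh3a, isocitrate dehydrogenases, fell in the second step by 0.32 and 0.16. Among 25 electron carriers, nucleotide carriers and uncouplers, 1 rose and 3 fell, then 0 rose and 4 fell (medians 0.0013 and -0.0447). The adenine nucleotide carriers Slc25a4 and Slc25a5, which exchange ATP for ADP, fell in the second step by 0.50 and 0.27, cytochrome c (Cycs) by 0.18, and the uncoupling protein Ucp2 by 0.25 and then 0.42.

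The 33 genes of hypoxia and glycolysis were all measured, and 4 rose and 9 fell in the first step. In the second, 8 rose and 4 fell (medians of the steps -0.0707 and 0.0463). Over all features, 6.36% and 6.43% rose and 8.07% and 11.0% fell in these steps (medians 0.0173 and -0.0127). Pdk1, a kinase that inhibits pyruvate dehydrogenase and is induced by hypoxia, fell by 0.65 ± 0.095 (limma adjusted p = 0.000274) and 0.60 ± 0.095 (adjusted p = 0.000391). Pdk4, its starvation-responsive relative, rose by 0.44 ± 0.13 (adjusted p = 0.0302) and 1.12 ± 0.13 (adjusted p = 1.95e-05). The lactate exporter Slc16a3 and the mitophagy receptor Bnip3 fell in the first step by 0.85 and 0.58, and Vegfa rose in the second by 0.59 (0.585 ± 0.086; adjusted p = 0.000209).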

How the data were processed

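Total RNA of 18 rat cultures was hybridised to Affymetrix whole-transcript arrays, per the labels' protocols. The deposited values are a log-scale score per feature, and neither the authors' summarisation and normalization nor the base of the logarithm is given in the sources used here. A planned log2 test was run on the values as they stand, since a change of base leaves p-values as they are. Symbols came from the platform's gene table: 15295 features have 1 symbol, 322 several and 12711 none. All 75 members matched RefSeq by Entrez identifier, and 10 had several features.

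A linear model of 6 group means on all 18 arrays and 28328 features was fitted with limma 3.58.1 (R 4.3.3; 12 residual and 2.03 prior degrees of freedom), with 10 contrasts and Benjamini-Hochberg adjustment. Intervals are 95%. The script was tested on simulated data. The text names up to 8 rises and 8 falls per comparison by size, and up to 5 genes of each list, past the threshold. Members and lists were chosen with earlier results of these data known. The number of arrays limits the precision.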

Additional observations from a re-analysis of the deposited data

Results flagged for a closer look

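The contrast between the steps, the change from 600 to 900 mosmol/kg minus that from 300 to 600, differed from 0 for 4 members by its own test (limma adjusted p under 0.05). Ndufa3 had the largest value, 1.1 log units, with a rise of 1.19 in the second step and a difference of 0.09, not called, in the first. Ndufa1 had a value of 0.43 with an adjusted p of 0.0499. Cox6b2 and Cox4i2 had 0.59 and 0.56; without the drug both fell by more in the first step than in the second. With CsA, Cox4i2 fell by 1.08 and then by 1.17, and its levels at 900 mosmol/kg lay under the arrays' lower quartiles, with an unknown signal over background. The calls of Cox4i2 and Ndufa1 were lost under 8 and 14 of 19 other settings (adjusted p up to 0.0633 and 0.116).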

How the results depend on the processing

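Under other settings, 568 of 713 tests of members named for a comparison stayed past the threshold, 145 did not and 0 changed direction. Cox4i2 and Cox6b2 in both steps, and Ndufa3 and Ndufb8 in the step to 900 mosmol/kg, were called with and without CsA under all 13 alternatives. With arrays centred on their medians, 1 member rose in the 600 challenge against the 300 culture, and 8 rose and 3 fell in the 900 challenge with CsA (median difference 0.0537). With quantile normalization, 1 rose in the 600 challenge, 10 in the 900 challenge (median 0.0498) and 5 in the 600 culture against the 300 culture, 9 fell in the 600 challenge against the 600 culture, and 0 fell with CsA at 900. After the features with the lowest mean levels (the lower quartile) were dropped, 1 member rose in the 600 challenge against the 300 culture, and 8 fell in the 600 challenge against the 600 culture. Trend and robust moderation gave 5 rises in the 600 challenge, 1 with CsA, 10 in the 900 challenge, 9 with CsA, 5 in the 600 culture, 5 rises and 12 falls in the 600 challenge against the 600 culture, 2 falls with CsA at 900 and 7 positive differences between the steps. Fitting only the groups compared, which leaves fewer arrays, gave 2 falls in the 600 challenge, 2 with CsA, 3 rises and 2 falls in the 900 challenge with CsA, 0 falls with CsA at 900, and 0 rises and 2 falls in the 600 challenge against the 600 culture. The cause of the other shifts was not tested.

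No pairing by replicate number was evident. Deviations of same-numbered arrays had a median correlation of 0.014 (n = 45, -0.105 to 0.203), and those of other-numbered arrays -0.011 (n = 90, -0.212 to 0.145). This check cannot exclude a pairing, since the sources do not say how the replicates were made. With the replicate block, 1 member instead of 2 rose in the 600 challenge against the 600 culture, and the other counts stayed within 1.5 times.

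Leaving out 1 array at a time, counts ran from 4 to 7 for falls in the 600 challenge with CsA, from 3 to 6 for rises in the 900 challenge, from 3 to 6 for falls in the 900 challenge with CsA, from 0 to 1 for falls with CsA at 900 and from 2 to 4 for the difference between the steps. In the 600 challenge 0 to 1 rose, with CsA 0 to 1, and against the 600 culture 0 to 2. The median difference ran from -0.0153 to 0.0317 in the 600 culture against the 300 culture and from -0.0203 to 0.0297 for the difference of CsA effects. Where an arm held 2 arrays, the spread was pooled over all groups. The number of arrays, and an unknown signal over background for dim genes such as Cox4i2 at 900 mosmol/kg, limit what can be seen.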
